A study of Mus musculus with 13 samples.

Results

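The miR-23, miR-24 and miR-27 microRNAs (miRNAs) come from a pair of paralogous gene clusters, and 5 of their mature forms were followed here: mmu-miR-23a-3p, mmu-miR-23b-3p, mmu-miR-24-3p, mmu-miR-27a-3p and mmu-miR-27b-3p, written below without the species prefix. They were taken by name from the deposited tables, which list 1452 mature miRNAs between them, and all 5 had a row in both tables. Small RNA was sequenced from vesicles of a mouse model of cancer cachexia, in which a growing tumour is accompanied by loss of muscle and fat. C26 is a colon adenocarcinoma line from Balb/C mice, and vesicles from serum-free medium of these cells after 48 h of culture (TMVs) gave 3 libraries. Plasma vesicles gave 6 libraries from Balb/C mice labelled cachectic, taken 14 days after C26 cells were placed under the skin of the back, and 4 libraries from Balb/C mice labelled healthy, the controls. The age and sex of the mice were not among the labels used here. The descriptions of control replicates 2 and 3 carry a pair of numbers each whose meaning is not stated.

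miRNAs of this group are cut from shared primary transcripts and repress messenger RNAs that pair with the seed near their 5′ end. miR-23a is known in muscle for repressing the ubiquitin ligases of muscle atrophy, miR-27 for restraining fat cell formation, and miR-24 for slowing cell division through cell cycle genes. In blood work, miR-23a-3p is also used as the denominator of a red cell lysis index, since it is taken to vary little in plasma.

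The mature sequences are shown because they decide which members can be told apart in a count table. Capitals mark the seed, bases 2 to 8. Sequences are from RefSeq, build GRCm38.p6, which held 4 of the 5 members.
miR-23a-3p: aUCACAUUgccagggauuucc
miR-24-3p: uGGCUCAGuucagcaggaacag
miR-27a-3p: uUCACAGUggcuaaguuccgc
miR-27b-3p: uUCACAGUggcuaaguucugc
The miR-27 paralogues share the seed UCACAGU and differ by the single change C19U, counted from the 5′ end of miR-27a-3p. Among these 4 there were 3 distinct seeds. miR-24-3p has the same sequence in both clusters, so its counts carry no information on the cluster of origin. Because the handling of near-identical reads is not stated, miR-27a-3p and miR-27b-3p, and likewise miR-23a-3p and miR-23b-3p, are uncertain against each other.

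The a cluster lies on the plus strand at chr8:84208518-84208921 and spans 404 bases, with Mir23a, Mir27a and Mir24-2 in that order. Mir23a and Mir27a overlap no other gene of the GENCODE M21 annotation, and Mir24-2 lies in an exon of the long noncoding RNA gene Gm26532. The b cluster lies on the plus strand at chr13:63300484-63301275 and spans 792 bases, with Mir23b, Mir27b and Mir24-1. It sits within 2010111I01Rik, with Mir23b in an intron and Mir27b and Mir24-1 in an exon of a transcript, and within an intron of Fancc on the minus strand. The positions are those of GRCm38.p6 and not coordinates of the deposited tables, which hold none.

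TMV libraries held 112357 to 170571 counts, C26-bearing plasma libraries 9828 to 76376 and control plasma libraries 7962 to 131385. A division of the plasma libraries ran across the groups. miR-5119 took 26.6% to 58.7% of all counts for C26-bearing replicates 1 to 4 and control replicate 4, and 0.0968% to 2.55% for C26-bearing replicates 5 and 6 and control replicates 1 to 3. The libraries over 20% carry the consecutive numbers 18 to 22 in their descriptions, whose meaning is not stated, and held 7962 to 76376 counts, against 27846 to 131385 in those under 20%. Summed red cell miRNAs (miR-451a, miR-486a-5p, miR-144-3p, miR-144-5p and miR-16-5p) held 3.52% to 8.24% in the libraries over 20% and 19.5% to 52.7% in those under 20%. Most of the difference was in miR-486a-5p, at 1.52% to 4.17% over 20% and 17.1% to 51.3% under. Each result below that touches this division is given with it, and its part in the results beyond the values shown was not tested. Shares of counts do not tell fewer vesicles that carry a miRNA from less of it in each vesicle.

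In TMVs the 5 miRNAs held 3.23% to 4.15% of all counts, against 0.840% to 1.85% in C26-bearing plasma and 0.779% to 2.37% in control plasma. TMVs did not overlap either plasma group in this sum. The share of all miRNAs that were likewise higher in TMVs was not counted. Neither the sum nor a single member is therefore shown to stand apart by it. The make-up differed as well as the sum. miR-24-3p took 51.9% ± 6.18 of the counts of the 5 in TMVs (SD, n = 3), 34.0% ± 8.71 in C26-bearing plasma (SD, n = 6), against 40.4% ± 13.8 in control plasma (SD, n = 4). TMVs and plasma stand in different tables and were different materials, so material and table cannot be told apart in any comparison between them.

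**Figure D1:**
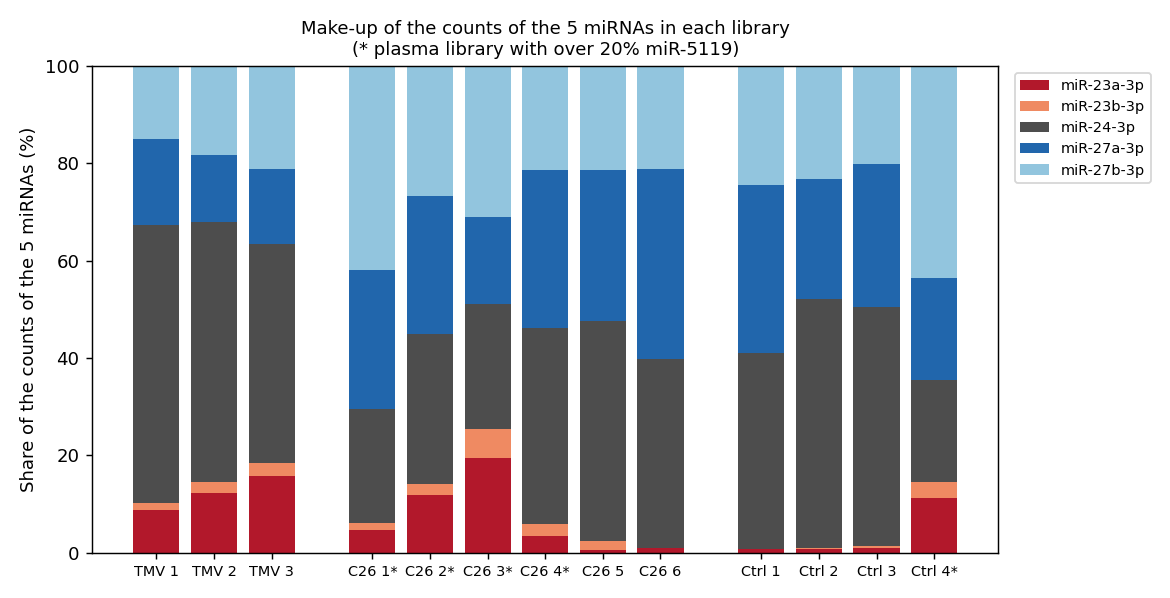
Each bar is a library and shows how the counts of the 5 miRNAs divided among them, in percent of their sum, for 3 TMV, 6 C26-bearing (C26) and 4 control (Ctrl) libraries. The miR-23a-3p segment took 8.73% to 15.7% in TMVs, and in plasma it was visible mainly in the starred libraries with over 20% miR-5119.

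miR-24-3p, the only member made by both clusters, was the most abundant of the 5 in TMVs. It held 2.27%, 1.73% and 1.87% of the counts in TMV replicates 1 to 3. In C26-bearing plasma its share ran from 0.215% to 0.833% with a median of 0.513%, against 0.870%, 0.839%, 1.16% and 0.163% in control replicates 1 to 4. The plasma groups overlapped over the whole C26-bearing range, and control replicate 4, the shallowest library, was the lowest of all. Its fitted log2 fold change in plasma, C26-bearing minus control, was -0.41 (SE 0.428), with an adjusted p of 0.747 by edgeR's quasi-likelihood test.

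miR-27a-3p, from the a cluster, held 0.703%, 0.447% and 0.635% of the counts in the TMV replicates. It ran from 0.151% to 0.602% with a median of 0.488% in C26-bearing plasma, against 0.745%, 0.403%, 0.693% and 0.163% in control replicates 1 to 4. All 3 groups overlapped. In plasma the fitted difference was a log2 fold change of -0.05 (SE 0.434, edgeR adjusted p = 0.962). miR-27b-3p, its paralogue from the b cluster, held 0.597%, 0.589% and 0.882% in TMVs. In plasma it ran from 0.254% to 0.700% with a median of 0.360% in C26-bearing mice, against 0.528%, 0.380%, 0.479% and 0.339% in controls. Here the control range lay within the C26-bearing range, with a log2 fold change of -0.02 (SE 0.381, edgeR adjusted p = 0.985).

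miR-23a-3p, first in the a cluster, held 0.347%, 0.396% and 0.653% of the counts in the TMV replicates, which is 508, 445 and 1114 counts. In C26-bearing replicates 1 to 6 it had 15, 161, 108, 4, 3 and 5 counts, which gives shares from 0.0108% to 0.211% with a median of 0.0592%. In control replicates 1 to 4 it had 20, 7, 32 and 7 counts, or 0.0159%, 0.0126%, 0.0244% and 0.0879%. Every TMV library was above every plasma library in share. Without miR-5119 in the total they overlapped, with 0.396% in C26-bearing replicate 3 and 0.347% in TMV replicate 1. In plasma, C26-bearing replicates 2 and 3 stood highest, and the groups overlapped. Counts of this size are imprecise: the 3 counts of C26-bearing replicate 5 have a 95% Wilson interval of 0.00366% to 0.0317%, and the 7 counts of control replicate 4 one of 0.0426% to 0.181%. These intervals cover counting error only.

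miR-23b-3p, first in the b cluster, was the least abundant member. It had 82, 80 and 188 counts in the TMV replicates, or 0.0560%, 0.0712% and 0.110%. In C26-bearing plasma it had 5, 31, 33, 3, 10 and 0 counts, against 4, 2, 9 and 2 in control plasma. The 0 of C26-bearing replicate 6 allows a share of up to 0.00931%, taking 3 counts as the limit. C26-bearing shares reached 0.0499% with a median of 0.0332%, against 0.00317%, 0.00359%, 0.00685% and 0.0251% in the controls. In 5 of 6 C26-bearing libraries the share was above the highest control, replicate 4, which had 2 counts. In shares of counts without miR-5119 this held only in part. Control replicate 4 then stood at 0.0466%, above C26-bearing replicates 1 and 5 at 0.0353% and 0.0369%. C26-bearing replicates 2, 3 and 4 stayed above it, at 0.0659%, 0.121% and 0.0519%. The 0 of replicate 6 cannot be placed among the controls, since the share it allows exceeds 3 of the 4.

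**Figure D2:**
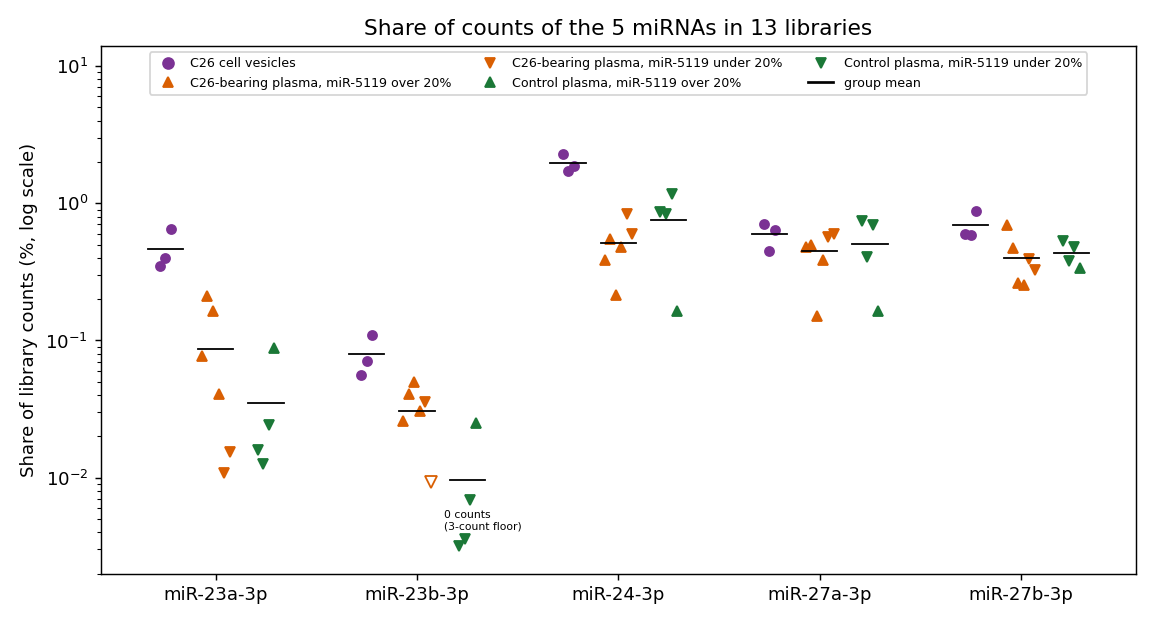
Share of all counts in each library on a log axis, for each of the 5 miRNAs and the 3 groups, with a line at the group mean and triangles pointing up for plasma libraries with over 20% miR-5119. The open triangle is the library with 0 counts of miR-23b-3p, drawn at the limit of 3 counts. miR-24-3p and both miR-27 forms overlap between the plasma groups, and the miR-23a-3p points over 20% miR-5119 lie above those under 20%.

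Neither miR-23 form passed the test between plasma groups. miR-23a-3p averaged 1011 ± 1037 TMM-scaled CPM (counts brought to an equal library size) in C26-bearing plasma (SD, n = 6), against 418 ± 528 in control plasma (SD, n = 4). This gave a log2 fold change of 1.56 (SE 1.09, edgeR adjusted p = 0.651). miR-23b-3p averaged 344 ± 254 CPM in C26-bearing plasma, against 116 ± 154 CPM in control plasma, with a log2 fold change of 2.32 (SE 1.12, edgeR adjusted p = 0.404, unadjusted 0.0622). No member was among the miRNAs called, and neither was any other: 0 of 130 tested (0%) passed an adjusted p of 0.05 by edgeR, 15 (11.5%) had an unadjusted p under 0.05, and DESeq2 called 4. Of the 5 members 2 had a fitted fold change above 0 and 3 below, with a median of -0.02, beside 66 above, 64 below and a median of 0.01 over all 130. No member had groups that did not overlap in log2 TMM-scaled CPM, a state met by 1 of 130 (0.769%) in each direction.

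The miR-23a-3p difference changed when the division of the plasma libraries was taken into account. Group and division are largely confounded, so their parts in it cannot be told apart here. C26-bearing replicates 1 to 4 were over 20%, and among controls only replicate 4, with 7 counts of miR-23a-3p. With a term for libraries over 20% miR-5119, the fold change on the log2 scale was -0.01 (SE 0.571) and its edgeR adjusted p 0.998. Without control replicate 4, the sole control over 20%, it was 2.89 (edgeR adjusted p = 0.205). For miR-23b-3p the term gave 1.43 (SE 0.901, edgeR adjusted p = 0.545), and leaving out control replicate 4 gave 3.26 (edgeR adjusted p = 0.154). limma voom with quality weights called miR-23b-3p, with a log2 fold change of 2.68 and an adjusted p of 0.0310, as 1 of 17 miRNAs that voom called among 130. miR-24-3p changed sign with the term, to 0.15 (edgeR adjusted p = 0.956), and so did miR-27a-3p, to 0.34 (edgeR adjusted p = 0.894).

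**Figure D3:**
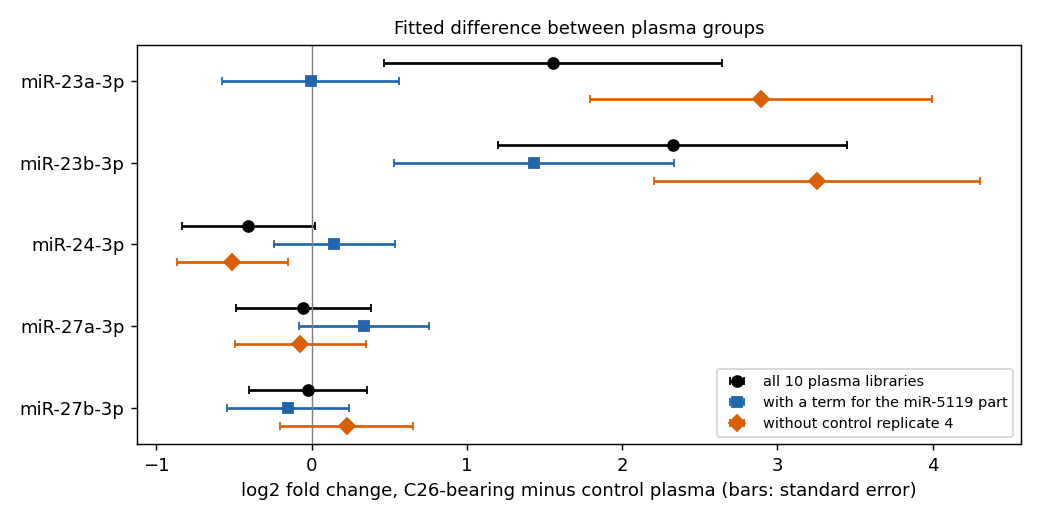
Points are log2 fold changes, C26-bearing minus control plasma, and bars are standard errors, for 3 fits: all 10 plasma libraries, the same with a term for the division by miR-5119, and without control replicate 4. For miR-23a-3p these were 1.56, -0.01 and 2.89, whereas for miR-27b-3p they stayed within 0.22 of 0.

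Across the division itself, which was drawn on miR-5119 and not on any member, miR-23a-3p was higher in every library over 20% than in any under 20%. Its log2 TMM-scaled CPM was 8.84 to 11.33 in the libraries over 20% and 6.79 to 7.59 in those under 20%. Its plain share ran from 0.0407% to 0.211% in those over 20%, against 0.0108% to 0.0244% in those under, so the order does not rest on the scaling. In this direction 13 of 130 miRNAs (10%) did not overlap in log2 TMM-scaled CPM. The miR-23a-3p difference of means on that scale, 2.99, ranked 12th of the 130. miR-24-3p ran the other way, at 11.19 to 12.36 in the libraries over 20% and 12.72 to 13.23 in those under, a direction in which 22 of 130 (16.9%) did not overlap. Its share of counts without miR-5119 did overlap, at 0.303% to 0.889% in those over 20% and 0.598% to 1.17% in those under. miR-23b-3p overlapped with a difference of 2.98, and miR-27a-3p and miR-27b-3p overlapped with differences of -0.66 and 0.19.

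Some marker miRNAs of blood cells differed across the same division and others overlapped. Of all 130 miRNAs tested, 13 (10%) were higher and 22 (16.9%) lower without overlap in log2 TMM-scaled CPM. The marker values that follow are shares of all counts, a scale on which non-overlap over all miRNAs was not counted. miR-223-3p, abundant in myeloid cells and platelets, had 2 to 117 counts in the libraries over 20% and 0 to 7 in those under 20%, with shares of 0.0204% to 0.153% against 0% to 0.00556%. The summed endothelial and platelet list (miR-126a-3p, miR-126a-5p, miR-223-3p and miR-150-5p) overlapped, at 0.816% to 1.86% in the libraries over 20% and 0.456% to 1.43% in those under. So did miR-126a-3p, miR-126a-5p and miR-150-5p taken singly. The red cell sum was lower in every library over 20%, at 3.52% to 8.24% against 19.5% to 52.7%. Its members did not all move that way, and both miR-144 arms overlapped. miR-486a-5p was lower in every library over 20%, as given above, miR-16-5p was higher in every one (0.122% to 0.389% over 20% and 0.0222% to 0.0879% under), and miR-451a overlapped (1.70% to 3.86% over 20% and 1.28% to 5.61% under). Liver, muscle and epithelial lists also overlapped: liver miRNAs held 0.899% to 10.2% over 20% and 0.761% to 28.1% under, muscle miRNAs 1.94% to 14.9% and 0.725% to 8.80%, and epithelial miRNAs 0.0318% to 0.0707% and 0.0279% to 0.205%. miR-141-3p, of the epithelial list, had 0 to 5 counts in the plasma libraries. The part of any of these cell types in the miR-23a-3p difference was not tested.

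Ratios between members within a library need no scaling between libraries, although at counts of a few they depend on depth through the added 0.5. In all 6 were compared, with 0.5 added to each count, exact two-sided permutation tests over libraries and adjustment over the 6 ratios. No ratio passed between C26-bearing and control plasma, where the smallest p that 210 splits allow is 0.00952.

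The a to b ratio of miR-23 was steady in TMVs. miR-23a-3p made up 86.1%, 84.8% and 85.6% of the summed miR-23 counts in TMV replicates 1 to 3, whose log2 ratios averaged 2.55 ± 0.0784 (SD, n = 3). In plasma the log2 ratio averaged 1.30 ± 1.74 in C26-bearing mice (SD, n = 6) and 1.78 ± 0.284 in controls (SD, n = 4). The C26-bearing values ran from -1.58 at replicate 5, with 3 against 10 counts, to 3.46 at replicate 6, with 5 against 0, and the upper end is set by the 0.5 added to a count of 0. The 95% Wilson interval of the miR-23a-3p percentage at replicate 6, 56.6% to 100%, holds all 4 controls. The difference of -0.49 did not pass (exact permutation p = 0.686, adjusted 0.781). Each TMV value was above each control value, by 0.77 in the mean, and with 35 splits the exact permutation p was 0.0571, the smallest that this design allows (adjusted 0.114).

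The miR-27 ratio lay on both sides of even in each group. miR-27a-3p made up 54.1%, 43.1% and 41.8% of the summed miR-27 counts in the TMV replicates. It made up 36.8% to 64.9% in C26-bearing plasma, with a mean of 52.1%, and 58.5%, 51.5%, 59.1% and 32.5% in control replicates 1 to 4. The log2 ratios averaged -0.21 ± 0.390 in TMVs, 0.12 ± 0.669 in C26-bearing plasma, against 0.02 ± 0.728 in control plasma. The plasma difference was 0.10 (exact permutation p = 0.781, adjusted 0.781), and it turned to -0.34 without the libraries under 10000 counts. Over the division by miR-5119 the ratio averaged -0.34 ± 0.662 in the libraries over 20% and 0.51 ± 0.283 in those under, and these overlapped.

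Within the a cluster, miR-23a-3p kept no fixed proportion to miR-27a-3p in plasma. In TMVs the counts stood at 0.493, 0.886 and 1.03 miR-23a-3p for each miR-27a-3p. In C26-bearing replicates 1 to 6 the same ratio was 0.163, 0.421, 1.08, 0.105, 0.0189 and 0.0258, against 0.0213, 0.0311, 0.0351 and 0.538 in control replicates 1 to 4. The plasma values sorted by the division and not by group: 0.105 to 1.08 in the libraries over 20% miR-5119 and 0.0189 to 0.0351 in those under. Of 129 miRNAs set against miR-27a-3p in the same way, 18 (14%) were likewise higher without overlap. Between groups the log2 ratio averaged -2.91 ± 2.18 in C26-bearing plasma, against -4.02 ± 2.14 in control plasma, a difference of 1.11 (exact permutation p = 0.457, adjusted 0.781). With the term for the division the difference was -0.49 (exact permutation within parts, p = 0.520). Against control plasma TMVs were 3.64 higher (exact permutation p = 0.114, adjusted 0.171).

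Within the b cluster, miR-23b-3p was a small fraction of miR-27b-3p throughout. The log2 ratio averaged -3.15 ± 0.225 in TMVs, -4.08 ± 1.94 in C26-bearing plasma, against -5.78 ± 1.62 in control plasma. Control replicates 1 to 3 lay at -7.21, -6.41 and -6.05 and replicate 4 at -3.46, and the C26-bearing libraries ran from -7.72 to -2.36. The plasma difference of 1.70 did not pass (exact permutation p = 0.190, adjusted 0.714), and with the term for the division it was 0.64. TMVs were above every control, by 2.63 in the mean (exact permutation p = 0.0571, the smallest possible, adjusted 0.114).

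miR-24-3p was set against each of its neighbours. Its log2 ratio to the summed miR-23 counts averaged 1.89 ± 0.600 in TMVs, 2.48 ± 1.90 in C26-bearing plasma, against 4.20 ± 2.47 in control plasma. The plasma difference was -1.72 (exact permutation p = 0.238, adjusted 0.714) and became -0.13 with the term for the division. In libraries over 20% miR-5119 this ratio ran from 0.01 to 2.66, and in those under 20% from 4.11 to 5.62, with no overlap. This is not a separate result from the members. Over 20%, miR-24-3p alone was lower without overlap, as were 16.9% of 130 miRNAs, and miR-23a-3p alone higher, as were 10%. The share of other ratios without overlap was not counted here.

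To the summed miR-27 counts, the log2 ratio of miR-24-3p averaged 0.61 ± 0.272 in TMVs, -0.77 ± 0.481 in C26-bearing plasma, against -0.51 ± 0.769 in control plasma. The plasma difference was -0.26 (exact permutation p = 0.524, adjusted 0.781). All 3 TMV libraries, at 0.80, 0.74 and 0.30, were above all 6 C26-bearing libraries, which reached -0.21 at most, and above all 4 controls, which reached 0.10. The TMV excess was 1.39 over C26-bearing plasma (exact permutation p = 0.0238, the smallest that 84 splits allow, adjusted 0.143) and 1.13 over control plasma (exact permutation p = 0.0571, adjusted 0.114). Neither passed after adjustment.

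**Figure D4:**
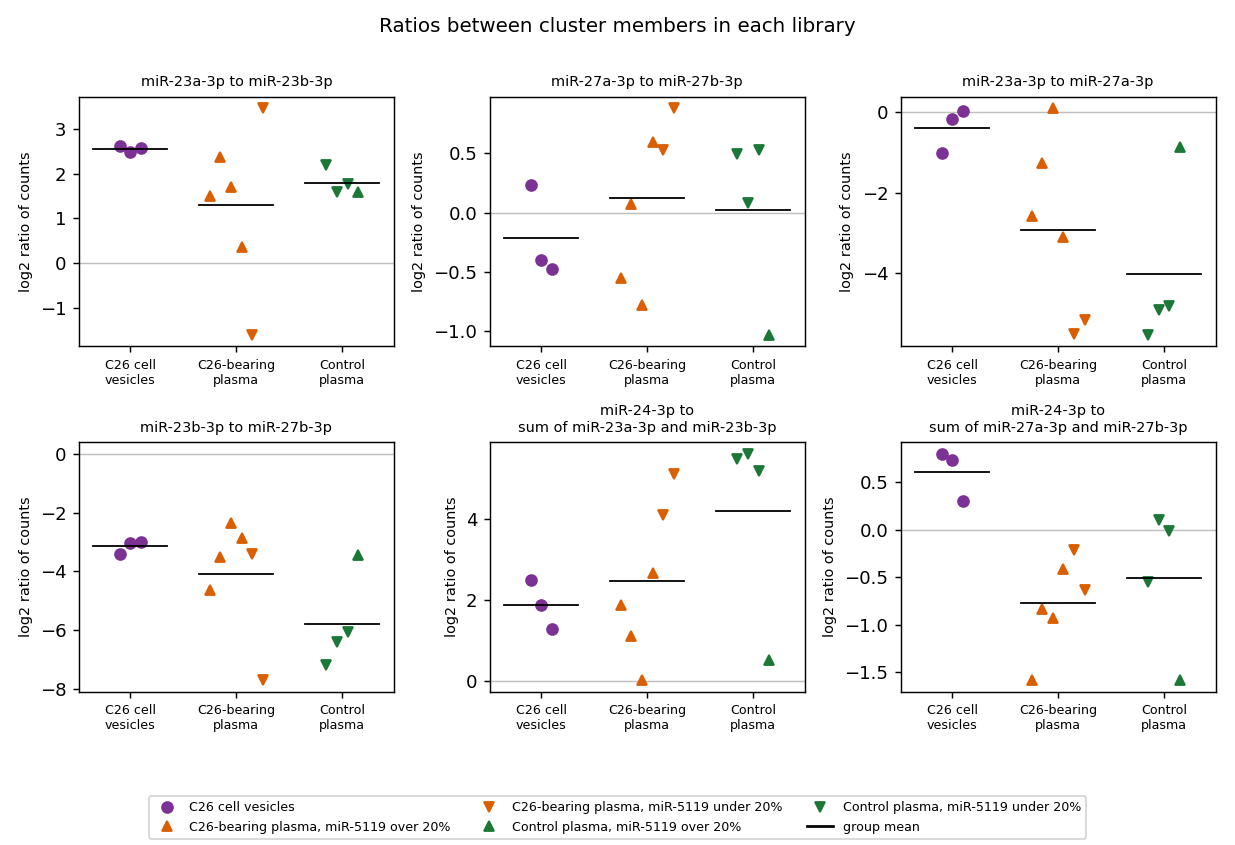
Each panel shows a log2 ratio of counts in each library of the 3 groups, with a line at the group mean and triangles pointing up for plasma libraries with over 20% miR-5119. In the panels of miR-23a-3p to miR-27a-3p and of miR-24-3p to miR-23 the upward and downward triangles separate. In the panel of miR-24-3p to miR-23 they lie at 0.01 to 2.66 and 4.11 to 5.62. The C26-bearing and control groups overlap in every panel. Of 130 miRNAs taken singly, 10% were higher and 16.9% lower without overlap across the same division.

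The 3p arm is the same from both miR-24 genes, whereas their 5p arms differ in sequence and can be counted apart. Which gene made the miR-24-3p counts was not tested. The hairpins of both genes are given with their mature arms in capitals.
Mir24-2: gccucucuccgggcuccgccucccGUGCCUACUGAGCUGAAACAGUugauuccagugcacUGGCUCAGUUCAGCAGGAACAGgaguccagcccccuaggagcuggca
Mir24-1: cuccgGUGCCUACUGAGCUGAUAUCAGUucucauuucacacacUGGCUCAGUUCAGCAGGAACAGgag
Their 5p arms share the first 16 bases and differ after them, where the capitals begin below.
miR-24-2-5p: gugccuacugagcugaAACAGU
miR-24-1-5p: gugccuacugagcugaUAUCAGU

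miR-24-2-5p, of the a cluster, far outnumbered miR-24-1-5p, of the b cluster, in all 3 groups. The TMV replicates had 137, 105 and 172 counts of miR-24-2-5p and 1, 2 and 1 of miR-24-1-5p. Summed over C26-bearing plasma the counts were 132 and 2, and over control plasma 334 and 10. miR-24-2-5p made up at least 98.1% of the pair in TMVs, with a 95% Wilson interval from 93.4% at the lowest. In control replicates 1 and 3, which had similar counts of the pair, it made up 97.8% and 95.9%. Only arms that end differently are compared here, and how reads that stop within the shared bases were assigned is not stated. In plasma miR-24-2-5p was the sole one of the 6 opposite arms abundant enough to test, with a log2 fold change of -0.30 (SE 0.491, edgeR adjusted p = 0.789). The other opposite arms were sparse: in TMVs miR-27a-5p had 29, 33 and 49 counts, miR-27b-5p 5, 9 and 15, miR-23a-5p 7, 5 and 8, and miR-23b-5p 2, 0 and 1.

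Whether miR-23a-3p varied little enough to serve as a denominator was described by its SD of log2 TMM-scaled CPM over the 10 plasma libraries. That SD was 1.73, which ranked 94th of 130 when counted from the least variable, and the median over all 130 was 1.22. From its lowest to its highest library it spanned 23.3-fold. Measured free of scaling, as the mean SD of its log2 ratios to every other miRNA tested, it had 2.14 and ranked 88th, against a median of 1.89. Within each part of the division by miR-5119 it was smaller: the SD was 1.00 within the libraries over 20%, where it ranked 86th, and 0.393 within those under 20%, where it ranked 14th. The median over all 130 was smaller there too, at 0.848 over 20% and 0.844 under 20%. miR-23a-3p had 3 to 161 counts per plasma library, a range over which counting error is large at the low end. Within the libraries under 20% it had 3 to 32 counts, too few to pass the count filter when those libraries were fitted alone.

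The b form of miR-27 stood at the other end. miR-27b-3p had an SD of 0.431, the 4th lowest of 130, and 25 to 665 counts, and it ranked 6th by the ratio measure. miR-27a-3p followed with 0.588 (rank 14) and miR-24-3p with 0.645 (rank 18), whereas miR-23b-3p had 1.92 (rank 106). In a list of 11 miRNAs used as references in plasma work, miR-126a-3p had 0.502 (rank 7), miR-191-5p 0.535 (rank 10) and miR-26a-5p 0.592 (rank 15). At the variable end of that list miR-16-5p had 1.40 (rank 72) and miR-425-5p 1.82 (rank 100), and the remaining 6 lay between 0.688 and 1.23. By the ratio measure the least variable were miR-142a-5p at 1.45, miR-146b-5p at 1.45 and miR-320-3p at 1.47. Counting error is larger in the sparser miRNAs, and its part in this order was not tested.

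**Figure D5:**
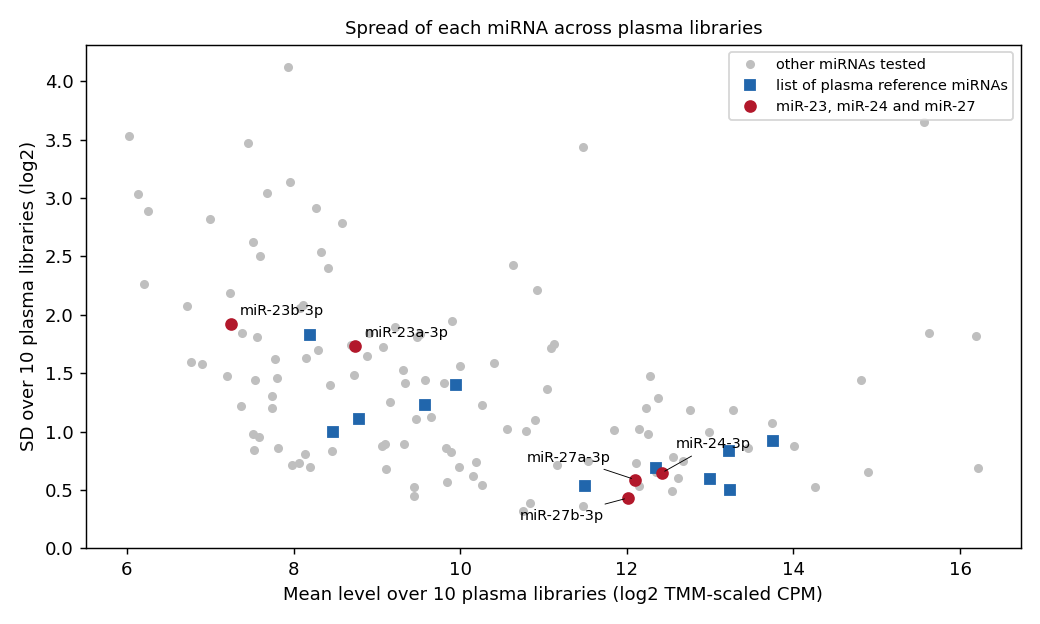
Each point is a miRNA tested, placed by its mean log2 TMM-scaled CPM in the 10 plasma libraries and by its SD there. miR-23a-3p at 1.73 and miR-23b-3p at 1.92 lie above the median of 1.22. miR-24-3p and miR-27a-3p, at 0.645 and 0.588, lie among the squares of the list of plasma reference miRNAs. miR-27b-3p, at 0.431, lies below all the squares, the lowest of which is miR-126a-3p at 0.502.

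The red cell lysis index, the log2 ratio of miR-451a to miR-23a-3p, ran from 3.53 to 8.49 over the plasma libraries with an SD of 1.72. Its numerator miR-451a had an SD of 0.651 in log2 TMM-scaled CPM and its denominator one of 1.73. The index averaged 5.55 in C26-bearing plasma, against 7.05 in control plasma. It ran from 3.53 to 6.40 in the libraries over 20% miR-5119 and from 6.23 to 8.49 in those under. With miR-27a-3p as the denominator the SD was 1.05, the means were 2.64 in C26-bearing plasma, against 3.03 in control plasma, and the libraries over 20%, at 1.83 to 4.39, overlapped those under, at 1.09 to 3.01.

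Over the 10 plasma libraries the members varied together in some pairs and in opposite directions in others. Spearman's rho between log2 TMM-scaled CPM values was 0.71 for miR-23a-3p with miR-23b-3p and 0.78 for miR-24-3p with miR-27a-3p. It was -0.81 for miR-23a-3p with miR-24-3p, -0.53 for miR-23a-3p with its cluster neighbour miR-27a-3p, and 0.15 for miR-23b-3p with miR-27b-3p. The miRNAs most like miR-23a-3p were miR-223-3p (0.93), miR-16-5p (0.89) and miR-374b-5p (0.89). Most like miR-23b-3p were miR-15b-5p (0.93), miR-221-3p (0.93) and miR-26b-5p (0.92), and most like miR-24-3p were miR-10b-5p (0.98), miR-125a-5p (0.92) and miR-30d-5p (0.90). For miR-27a-3p these were miR-10a-5p (0.84), miR-125a-5p (0.84) and let-7d-3p (0.81), and for miR-27b-3p miR-101a-3p (0.76), miR-101b-3p (0.67) and miR-150-5p (0.67). These values describe 10 libraries that share depth, scaling and the division by miR-5119, and they carry no test.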

How the data were processed

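Per the labels' protocols, vesicles were pelleted by successive spins, RNA was isolated with TriPure, and NEBNext small RNA libraries were sequenced on a NextSeq500. Reads went through bcl2fastq and cutadapt 1.10, per the submitters' processing notes. The sources used here do not state which aligner, counter, annotation and build followed. The authors deposited raw counts for each mature miRNA, 1164 in the TMV table and 1354 in the plasma table. Groups come from the sample titles. Nothing states that libraries came from separate animals, so p-values measure the spread between libraries.

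Plasma counts were filtered with filterByExpr (minimum count 10, 130 kept), scaled by TMM and compared by the robust quasi-likelihood test of edgeR 4.0.16 in R 4.3.3, with Benjamini-Hochberg adjustment over all tested. Ratios were compared by exact two-sided permutation of libraries (210, 35 or 84 splits), with p as 2 times the smaller one-sided share. TMV and plasma tables were compared only in ratios, which need no common scaling. Alternatives used limma 3.58.1 and DESeq2 1.42.0, and other steps Python 3.11.15 with scipy 1.17.1.

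The miRNAs named are the members, their opposite arms, a list of plasma references, the 3 most like each member by Spearman's rho, the 3 with the lowest pairwise spread, and cell type marker lists. miR-223-3p, miR-451a, miR-486a-5p, miR-16-5p and miR-141-3p were singled out from the marker lists after their values were seen. Members and lists were chosen with earlier results of these data known. The term and parts by miR-5119 for ratios and spread were chosen after seeing the data. The permutation p was first taken as the share of splits with an absolute difference at least as large, and was replaced, with those values known, by the form above, whose smallest value over 35 splits is the one planned. No adjusted p was under 0.05 in either form.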

Additional observations from a re-analysis of the deposited data

Results flagged for a closer look

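In control plasma, replicate 4 stood apart from the other 3 libraries in 4 of the 22 groups of values examined for a single distant library. Chance gives about 1 in 20 for a single group. The groups reuse the same counts and libraries, so 4 of 22 cannot be set against that rate. The miR-23a-3p share of replicate 4 was 0.0879%, and the nearest other control had 0.0244%. Its miR-23b-3p share was 0.0251%, with the nearest at 0.00685%. Its log2 ratio of miR-23a-3p to miR-27a-3p was -0.85, with the nearest at -4.81, and its log2 ratio of miR-24-3p to the summed miR-23 counts was 0.51, with the nearest at 5.20. These rest on 7 counts of miR-23a-3p and 2 of miR-23b-3p in the shallowest library, of 7962 counts, which is also the only control with over 20% miR-5119. The part of depth and of that division in these values was not tested.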

How the results depend on the processing

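Of 355 alternative values, 308 kept their direction and side of the threshold or moved little. This count includes ratio values that could not have passed the threshold, as given below. No miRNA was called in the plasma comparison, and the alternatives called 4 with no filter on low counts, 4 with DESeq2, 17 with limma voom, 2 with a term for libraries over 20% miR-5119, 1 within the libraries over 20% and 0 to 1 with each library left out (1 without C26-bearing replicate 2 or 3). miR-23b-3p was called by voom alone (log2 fold change 2.68, adjusted p = 0.0310), and its adjusted p over 22 alternatives ran from 0.0310 to 1. The miR-23a-3p log2 fold change became -0.0067 with the miR-5119 term, and miR-24-3p became 0.15 with the term and 0.92 within the libraries over 20%, where control replicate 4 stands alone and is assumed to vary like the others. miR-27a-3p became 0.12 with RLE factors, 0.061 with upper quartile scaling, 0.10 with DESeq2, 0.34 with the term, 0.11 within the libraries under 20% and 0.83 within those over 20%. miR-27b-3p became 0.18 with RLE factors, 0.042 with upper quartile scaling, 0.030 with a filter of 10 CPM in 4 libraries, 0.19 with DESeq2, 0.11 with voom, 0.0042 within the libraries over 20% and 0.13 without libraries under 10000 counts. RLE factors moved the median of all tested to 0.19 and miR-23a-3p as library size moved it to -0.51, against 0.01 with TMM.

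With each library left out, log2 fold changes ran from 1.02 to 2.89 for miR-23a-3p, 1.76 to 3.26 for miR-23b-3p, -0.56 to -0.22 for miR-24-3p, -0.25 to 0.31 for miR-27a-3p and -0.23 to 0.22 for miR-27b-3p. miR-23b-3p fell below the filter without C26-bearing replicate 2 or 3 and within either part. miR-23a-3p also fell below it within the libraries under 20%. In plasma, ratio differences ran from -0.92 to 0.091 (miR-23a-3p to miR-23b-3p), -0.25 to 0.28 (miR-27a-3p to miR-27b-3p), 0.51 to 2.17 (miR-23a-3p to miR-27a-3p), 1.22 to 2.47 (miR-23b-3p to miR-27b-3p), -2.95 to -1.22 (miR-24-3p to miR-23) and -0.62 to -0.06 (miR-24-3p to miR-27). The miR-27a-3p to miR-27b-3p difference was -0.34 without libraries under 10000 counts. The miR-23a-3p to miR-27a-3p difference was -0.25 within the libraries under 20% and -0.49 with the term, and the miR-24-3p to miR-27 difference was 0.30 without both controls of 2 numbers and 0.094 with the term. None of 174 alternatives for the ratios of C26-bearing against control plasma and of TMVs against control plasma passed (lowest adjusted p = 0.12). Between TMVs and C26-bearing plasma, counting p by absolute differences gave a lowest adjusted p of 0.0714, for miR-24-3p to miR-27. The miR-23a-3p SD ran from 1.56 to 1.84 over these omissions and was 0.393 within the libraries under 20% and 1.00 within those over 20%, and it was not among the 52 miRNAs with at least 5 counts in every plasma library. Without miR-5119 in the total, mean shares in C26-bearing plasma were 0.0518% for miR-23b-3p, 0.612% for miR-27a-3p and 0.587% for miR-27b-3p. The same total gave miR-23a-3p 0.157% in C26-bearing plasma, against 0.0540% in control plasma, and miR-23b-3p 0.0151% in control plasma.

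Replicate numbers did not pair the plasma libraries: deviations of same-numbered libraries correlated at -0.39, -0.28, -0.27 and 0.20. With the replicate block, edgeR called 0 and 33 had an unadjusted p under 0.05, against 15 without the block, and log2 fold changes were 2.48, 2.79, -0.55, -0.17 and 0.049 for miR-23a-3p, miR-23b-3p, miR-24-3p, miR-27a-3p and miR-27b-3p. Where the cause of a changed value is not given by fewer libraries or miRNAs, the cause was not tested. Depth limits both miR-23 forms.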
